A study of Mus musculus with 9 samples.

Results

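The genes described here encode hormone receptors and a steroid enzyme of the mouse submandibular salivary gland. They are the receptors for growth hormone (Ghr) and prolactin (Prlr), for thyroid hormone (Thra, Thrb), for glucocorticoids and mineralocorticoids (Nr3c1, Nr3c2) and for estrogen and progesterone (Esr1, Pgr), with steroid 5-alpha-reductase (Srd5a1). The 9 genes were listed by name, by a rule that uses no measured value but with earlier results of these data known, and all 9 have a row among the 54532 gene identifiers of the deposited count table. All 9 also passed the filter on low counts, which left 15224 genes to test. The androgen side of the group is represented by Srd5a1 alone.

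RNA was sequenced from submandibular glands of wild-type (WT) mice that had all received 10 Gy of radiation. There were 3 groups of 3 libraries, collected 30, 60 or 90 days later, and non-irradiated glands were not analysed here, so every comparison is between irradiated time points and time since radiation cannot be told apart from the age of the mice. Each library was made from 4 tissue sections of 50 µm, so it samples part of a gland with all its cell types, and the labels give no age, sex, strain or hour of harvest. The protocol gives 3 glands per time point but does not state that they came from separate animals, so the p-values measure the spread between these samples.

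Growth hormone and prolactin act through single-pass receptors of the cytokine receptor family, which have no enzyme activity of their own and signal through the kinase JAK2 and the transcription factor STAT5. Thyroid hormone, corticosteroids, estrogen and progesterone act through nuclear receptors, which are transcription factors that bind DNA and change their activity when the hormone binds. In rodents the granular convoluted ducts of the submandibular gland, which store Egf and kallikreins, mature under the control of androgens, thyroid hormone and corticosteroids. Srd5a1 converts testosterone to the more potent dihydrotestosterone.

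Total counts per library ran from 16541396 to 26065856, and 3 counts, the upper limit that a count of 0 allows, correspond to between 0.115 and 0.181 CPM (the count of a gene scaled to a fixed library total). This limit covers counting error only, since copies made by amplification cannot be recognised here. Xist, transcribed from the inactive X chromosome, measured 184 to 319 CPM in the 9 libraries, and the Y-linked genes Ddx3y, Kdm5d, Uty and Eif2s3y had 0 counts in every library. The acinar markers, 8 genes of the secretory end pieces that include Aqp5, Bhlha15 and the very abundant Mucl2, were all detected. Of 7 tested, 1 was higher at 60 than at 30 days, 1 was lower at 90 than at 60 days, and 1 was higher and 2 lower at 90 than at 30 days. Their summed level ran from 446400 to 634600 CPM at 30 days, from 353600 to 516700 at 60 days and from 304600 to 448200 at 90 days. The 8 duct markers summed to between 707 and 867 CPM in all libraries. Of 48 tested markers in the 10 lists other than acinar, 0 differed between 30 and 60 days or between 60 and 90 days, and 1, the basal cell gene Trp63, was higher at 90 than at 30 days (edgeR's quasi-likelihood test, Benjamini-Hochberg adjusted p under the threshold of 0.05). Summed levels did not overlap between 30 and 60 days for the myoepithelial and basal, Schwann cell and endothelial lists. They overlapped for the other marker lists. Of all single genes tested, 8.65% were higher and 8.22% lower without overlap between these time points. The myoepithelial and basal sum was 303.7 to 423.0 CPM at 30 days and 450.5 to 480.4 at 60 days. The Schwann cell sum went from 148.6 to 151.4 CPM down to 138.8 to 142.7. That of the endothelial markers went from 65.1 to 73.8 CPM down to 62.7 to 63.6. At 90 days the endothelial sum was higher again, at 69.0 to 80.7 CPM, and the Schwann cell sum was 120.9 to 147.4. The myoepithelial and basal sum was then 418.8 to 591.7 CPM. The sublingual mucous sum ran from 152.2 to 685.5 CPM within the 30-day libraries alone. These sums were not tested. In bulk tissue, fewer cells of a type and less RNA per cell cannot be told apart.

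Levels of different genes were compared per kilobase of exon, as CPM after TMM scaling (trimmed mean of M-values, which sets libraries to a common scale) divided by the exon length of the gene. Ghr was the most abundant of the 9 genes by this measure, at 7.88 ± 1.60 CPM per kb (SD, n = 9 libraries over all time points). Thra followed at 5.35 ± 0.591, Nr3c1 at 4.33 ± 0.333 and Thrb at 3.43 ± 0.322 CPM per kb. Prlr, at 2.63 ± 0.496 CPM per kb, and Nr3c2, at 2.50 ± 0.514, could not be ordered, with Prlr the higher in 5 of 9 libraries. Srd5a1 stood at 1.63 ± 0.620 CPM per kb and was below Nr3c2 in 8 of 9 libraries. The sex steroid receptors were the lowest, Pgr at 0.346 ± 0.0745 and Esr1 at 0.0662 ± 0.0354 CPM per kb, and neither overlapped the gene above it in any library. Ghr exceeded Thra, and Thra exceeded Nr3c1, in 8 of 9 libraries each. Lengths count every annotated exon of a gene once, so a gene expressed from a few of its exons is understated.

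**Figure D1:**
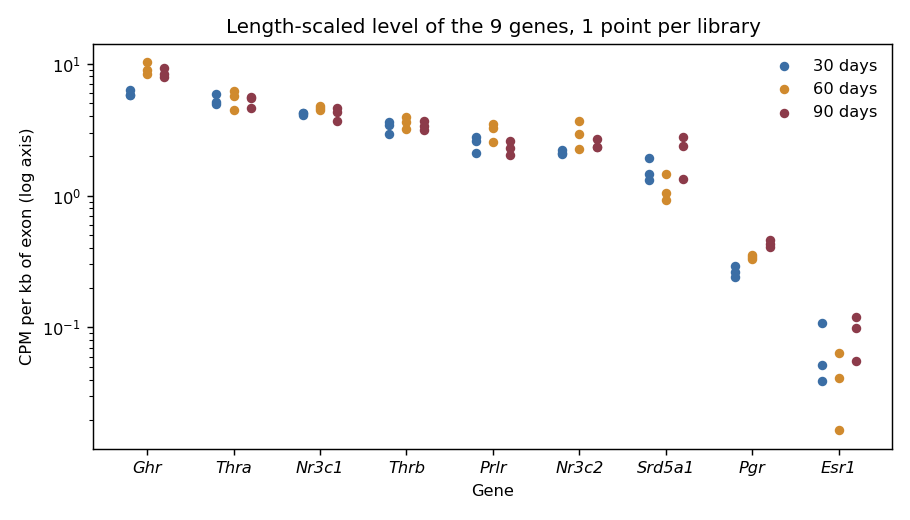
CPM per kb of exon (log axis) for the 9 genes in order of their mean, with 1 point per library coloured by days after irradiation. Ghr is at the top with a mean of 7.88, 7 genes lie between 1.63 and 7.88, and Pgr (0.346) and Esr1 (0.0662) lie below all of them without overlap.

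The growth hormone receptor gene was the 1 member that passed the test with all libraries. Ghr (ENSMUSG00000055737, chromosome 15, 3317760 to 3583492, minus strand, GRCm38) measured 56.7, 52.7 and 52.0 CPM in the 30-day samples 1 to 3. The 60-day samples measured 81.3, 92.6 and 75.8 CPM and the 90-day samples 75.1, 71.5 and 84.1 CPM. Every 60-day and every 90-day library was above every 30-day library, and the 60-day and 90-day libraries overlapped.

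Ghr rose 1.55-fold from 30 to 60 days, which is 0.63 ± 0.11 in log2 units (standard error; adjusted p = 0.00366). At 90 days it was 1.43-fold above 30 days, with a log2 fold change of 0.51 ± 0.11 (adjusted p = 0.00965). From 60 to 90 days the log2 fold change was -0.11, with a 95% interval from -0.33 to 0.10 (adjusted p = 0.752). The test of any difference among the time points gave an adjusted p of 0.00413. Both changes from 30 days share the 30-day libraries. The rise to 60 days passed under all 17 processing alternatives, with adjusted p-values up to 0.0466. The call at 90 days was lost without 30-day sample 2 (log2 fold change 0.50, adjusted p = 0.0524) and without 90-day sample 3 (0.44, adjusted p = 0.0678). The acinar markers summed to lower levels at the later time points, with overlapping ranges, but such a sum mostly follows its most abundant genes. Of 7 acinar markers tested, 1 was higher and 0 lower from 30 to 60 days. From 30 to 90 days 1 was higher and 2 were lower. The part of acinar cells in the Ghr values was not tested. Counts are per gene and do not separate the membrane receptor from the soluble growth hormone binding protein, which mice make from the same gene by splicing.

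Among 13019 other genes averaging at least 1 CPM, those whose profile over the 9 libraries lay nearest to that of Ghr were Slc22a23, Cwh43 and Cenpo. The distance was the root mean square difference of log2 CPM after each gene was centred on its own mean, and it was 0.061 for Slc22a23, 0.077 for Cwh43 and 0.083 for Cenpo, beside a spread of 0.288 for Ghr itself. Slc22a23, a member of the SLC22 transporter family, measured 19.8 ± 0.328 CPM at 30 days, 30.7 ± 1.71 at 60 days and 27.3 ± 2.23 at 90 days (mean ± SD of 3 libraries). Cwh43 measured 30.1 ± 0.866, 43.2 ± 3.17 and 42.2 ± 0.961 CPM at these time points, and the centromere protein gene Cenpo 2.51 ± 0.0338, 3.86 ± 0.0908 and 3.74 ± 0.212 CPM (mean ± SD of 3 libraries). These genes were picked out of many for their likeness, so the likeness is a description.

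The prolactin receptor gene, which belongs to the same receptor family, did not pass in any comparison with the main settings. Prlr (ENSMUSG00000005268, chromosome 15, 10177238 to 10349180, plus strand) measured 43.0, 39.5 and 32.0 CPM at 30 days, 39.2, 50.3 and 53.3 CPM at 60 days and 39.9, 30.9 and 35.1 CPM at 90 days. All 3 groups overlapped in part, with 60-day samples 2 and 3 the highest of the 9 libraries. The log2 fold change was 0.32 ± 0.14 (SE) from 30 to 60 days (adjusted p = 0.331) and -0.43 ± 0.13 from 60 to 90 days (adjusted p = 0.248), and neither passed. With no filter on low counts, which called far more of all genes, the second passed (adjusted p = 0.0214). The test of any difference passed with no filter (adjusted p = 0.01375) and without 60-day sample 1 (0.0397). The ratio of Ghr to Prlr counts per exon length, which is free of any scaling between libraries, was 2.42 ± 0.293 at 30 days, 3.01 ± 0.558 at 60 days and 3.72 ± 0.467 at 90 days (mean ± SD of 3 libraries). All 90-day ratios were above all 30-day ratios, while the 60-day ratios, from 2.41 to 3.51, overlapped both groups. The count does not separate the long and short forms of the receptor.

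Stretches of promoter are shown for both receptors and for Igfals and Sgk1, a growth hormone and a corticosteroid response gene, because STAT5 and the glucocorticoid receptor bind known palindromes, searched as TTCNNNGAA and as GNACA and TGTNC with 3 bases between them, on both strands, in the 250 bases before each RefSeq start site (GRCm38.p6). Of the 9 genes 7 have an entry, with 12 start sites among them. The STAT5 palindrome was present before 1 start of Prlr, at 110 bases, and 1 of Esr1, at 188 bases, and before neither start of Ghr. Igfals holds it before 2 of its 3 starts, at 58 and 236 bases, Sgk1 before 1 start, at 223 bases, and Cish not in this window. It occurs in 7.02% of all 32851 promoter windows. The glucocorticoid palindrome was in 0 of the 12 windows and in 0.387% of all, and among the listed genes looked up it was found before 1 start of Sgk1, at 188 bases. The thyroid direct repeat (AGGTCA repeated after 4 bases) and the estrogen palindrome (GGTCA and TGACC with 3 bases between them) were in 0 of the 12 windows, and in 0.015% and 0.064% of all. A match describes letters and not a bound site, and no match says only that these letters are not in this window. The stretches below are written 5′ to 3′ on the strand of the gene, with the palindrome in capitals, and Ghr, which holds none, is given for its farthest upstream start.
Ghr, chr15:3583353-3583502, minus strand, the 150 bases before the start: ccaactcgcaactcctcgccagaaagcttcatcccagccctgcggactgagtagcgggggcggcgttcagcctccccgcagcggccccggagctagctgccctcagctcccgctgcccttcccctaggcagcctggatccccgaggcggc
Prlr, chr15:10223756-10223855, plus strand, 150 to 51 bases before the start: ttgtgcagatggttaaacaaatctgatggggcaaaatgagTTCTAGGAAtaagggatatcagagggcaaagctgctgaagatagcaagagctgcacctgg
Igfals, chr17:24878131-24878230, plus strand, the 100 bases before the start: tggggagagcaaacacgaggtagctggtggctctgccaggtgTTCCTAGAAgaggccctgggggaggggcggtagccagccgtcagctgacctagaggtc
Sgk1, chr10:21993660-21993759, plus strand, 230 to 131 bases before the start: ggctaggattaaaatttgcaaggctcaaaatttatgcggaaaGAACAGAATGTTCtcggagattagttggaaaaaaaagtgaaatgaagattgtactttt

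Of the 9 genes, 1 passed the test between 30 and 60 days, where 1.56% of all tested genes passed and 1.14% passed as higher at 60 days. Between 60 and 90 days 0 passed, against 0.256% of all genes, and 3 of the 9 (Srd5a1, Prlr and Esr1) had an unadjusted p under 0.05, as did 10.8% of all genes. DESeq2 gave 0 adjusted calls there as well. Between 30 and 90 days 1 passed, against 3.57% of all genes and 1.81% higher at 90 days, and the test of any difference also gave 1, against 3.29%. A count of 1 in 9 genes is too small to set the group apart from these shares. The median log2 fold change of the 9 genes was 0.15 from 30 to 60 days, -0.08 from 60 to 90 days and 0.21 from 30 to 90 days, beside -0.0024, 0.0007 and 0.0135 for all genes tested.

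**Figure D2:**
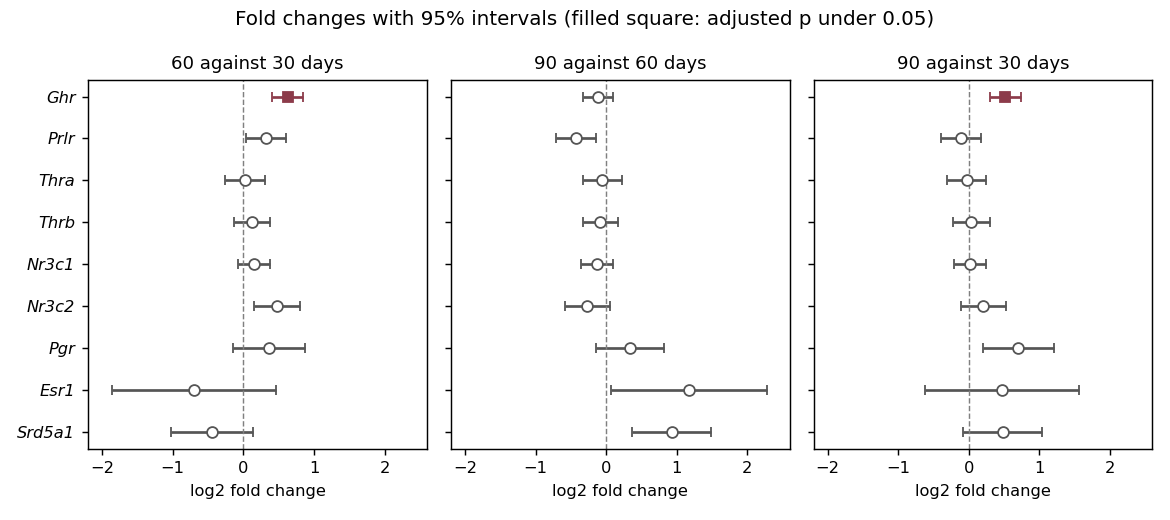
Log2 fold changes of the 9 genes with 95% intervals in the 3 pairwise comparisons, filled squares marking an adjusted p under 0.05. Ghr is the only gene of the 9 with filled squares, at 0.63 from 30 to 60 days and 0.51 from 30 to 90 days, and the intervals of Esr1 are the widest.

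Values that do not overlap between groups were more common than calls. All 60-day libraries were above all 30-day libraries for 4 of the 9 genes (Ghr, Nr3c1, Nr3c2 and Pgr), where this held for 8.65% of all tested genes. All 90-day libraries were above all 30-day libraries for Ghr, Nr3c2 and Pgr, 3 of 9 against 11.4% of all genes. Pgr alone was also higher in every 90-day than in every 60-day library, 1 of 9 against 8.3%. In no comparison were all libraries of the later time point lower for any of the 9 genes, where this held for 8.22% of all genes from 30 to 60 days, 7.64% from 60 to 90 days and 11.8% from 30 to 90 days.

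The thyroid hormone receptor genes had log2 fold changes near 0 in every comparison. Thra (ENSMUSG00000058756, chromosome 11, 98740638 to 98769006, plus strand), which encodes the alpha receptor and a splice form that does not bind the hormone, measured 23.8, 23.0 and 27.4 CPM at 30 days, 28.5, 26.5 and 20.4 CPM at 60 days and 25.7, 25.5 and 21.4 CPM at 90 days. Thrb (ENSMUSG00000021779, chromosome 14, 17660261 to 18038090, plus strand), the beta receptor, measured 25.5, 26.6 and 21.6 CPM at 30 days, 23.7, 29.4 and 26.7 CPM at 60 days and 27.3, 23.2 and 25.0 CPM at 90 days. The groups overlapped for both genes in every comparison.

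From 30 to 90 days the log2 fold change of Thra was -0.03, with a 95% interval from -0.31 to 0.25 (adjusted p = 0.941), and that of Thrb was 0.04, with an interval from -0.22 to 0.29 (adjusted p = 0.924). The sign of the Thra value depended on the scaling: with library-size scaling it was 0.20. Per kilobase Thrb stood at 0.625 ± 0.120 times Thra at 30 days, 0.675 ± 0.149 times at 60 days and 0.652 ± 0.0800 times at 90 days (mean ± SD of 3 libraries). Exons of Thra and of Nr1d1, a repressor of the circadian clock encoded on the opposite strand, share 263 bases in the annotation. Nr1d1 measured 145 ± 21.2 CPM at 30 days and 118 ± 10.9 CPM at 90 days (mean ± SD of 3 libraries; log2 fold change -0.30, adjusted p = 0.189), and the use of strand in counting is not given in the sources used here, so reads from the shared bases cannot be assigned to either gene.

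**Figure D3:**
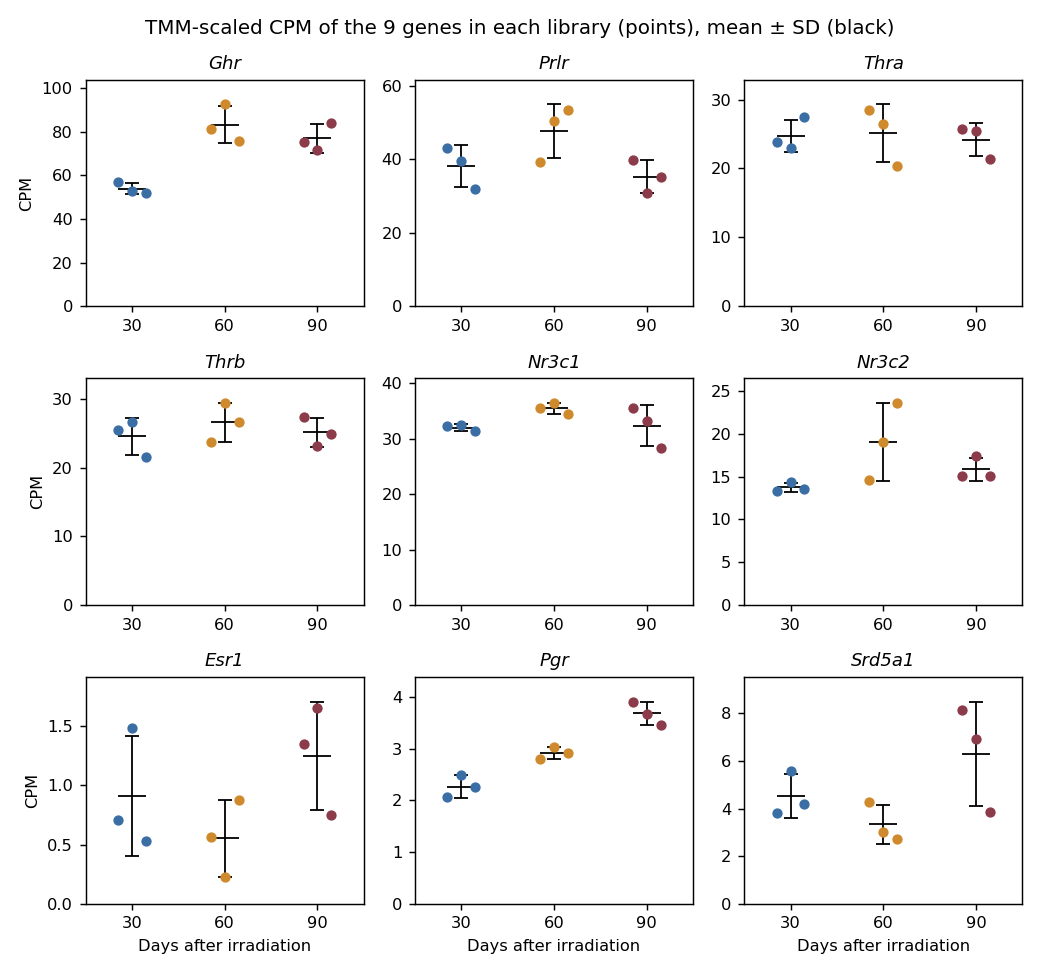
TMM-scaled CPM of each of the 9 genes against days after irradiation, with a point for each library and the mean ± SD of 3 libraries in black, each panel on its own axis from 0. Ghr stands apart at 30 days (52.0 to 56.7 CPM), Pgr goes from 2.06 to 2.50 up to 3.46 to 3.91 CPM without overlap, and Thra and Thrb overlap throughout.

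The glucocorticoid receptor gene Nr3c1 (ENSMUSG00000024431, chromosome 18, 39410545 to 39519421, minus strand) varied within a narrow range. It measured 32.3, 32.4 and 31.3 CPM at 30 days, 35.6, 36.5 and 34.5 CPM at 60 days and 35.6, 33.2 and 28.3 CPM at 90 days. The 60-day libraries were all above the 30-day libraries, and the 90-day libraries spanned both. Between 30 and 60 days the log2 fold change was 0.15, with a 95% interval from -0.08 to 0.37 (adjusted p = 0.628), and from 30 to 90 days 0.02, with an interval from -0.21 to 0.24 (adjusted p = 0.956).

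The mineralocorticoid receptor gene Nr3c2 (ENSMUSG00000031618, chromosome 8, 76899442 to 77245012, plus strand), which mediates the action of aldosterone on sodium uptake in ducts and kidney tubules, spread most at 60 days. It measured 13.3, 14.3 and 13.5 CPM at 30 days, 14.6, 19.0 and 23.6 CPM at 60 days and 15.1, 17.4 and 15.1 CPM at 90 days. The lowest 60-day library lay just above the highest 30-day library. Between 30 and 60 days the log2 fold change was 0.47 ± 0.15 (SE), with an adjusted p of 0.175. Without 60-day sample 1 it was 0.64 and passed (adjusted p = 0.0274), and it also passed with no filter on low counts (adjusted p = 0.0458). The fit with no filter called 459 of all genes in this comparison, against 238 with the filter. Per kilobase Nr3c1 exceeded Nr3c2 by 1.97 ± 0.0701 times at 30 days, 1.64 ± 0.416 times at 60 days and 1.73 ± 0.228 times at 90 days (mean ± SD of 3 libraries).

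The progesterone receptor gene, itself a classical target of the estrogen receptor, had low but separate values. Pgr (ENSMUSG00000031870, chromosome 9, 8899833 to 8968611, plus strand) measured 2.06, 2.50 and 2.25 CPM at 30 days, 2.81, 3.03 and 2.92 CPM at 60 days and 3.91, 3.68 and 3.46 CPM at 90 days. Each group lay wholly above the one before it. These values rest on 29 to 116 counts per library. Between 30 and 90 days the log2 fold change was 0.70 ± 0.24 (SE), with a 95% interval from 0.19 to 1.20, and did not pass after adjustment (adjusted p = 0.126). Over the 17 alternatives the value stayed between 0.63 and 0.92 and the adjusted p between 0.108 and 0.365.

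The estrogen receptor gene was near the limit of detection. Esr1 (ENSMUSG00000019768, chromosome 10, 4611593 to 5005614, plus strand) had 10, 25 and 9 counts in the 30-day libraries, 13, 5 and 21 in the 60-day libraries and 40, 48 and 15 in the 90-day libraries. These correspond to 0.709, 1.49 and 0.533 CPM at 30 days, 0.561, 0.226 and 0.876 CPM at 60 days and 1.35, 1.65 and 0.753 CPM at 90 days. The groups overlapped in every comparison. Between 60 and 90 days the log2 fold change was 1.17 with a 95% interval from 0.07 to 2.27 (adjusted p = 0.440) and did not pass, and at this depth a difference of the size seen for Ghr was not detectable. Markers of fibroblasts, a cell type known to express Esr1, summed to between 340 and 554 CPM with 0 of 7 genes called in any pairwise comparison. The 30-day libraries alone ran from 345.7 to 554.2 CPM, and the part of these cells in the Esr1 values was not tested.

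The 5-alpha-reductase gene Srd5a1 (ENSMUSG00000021594, chromosome 13, 69573449 to 69611442, minus strand) was high in 2 of the 90-day libraries. It measured 3.83, 5.59 and 4.20 CPM at 30 days, 4.27, 3.03 and 2.71 CPM at 60 days and 8.12, 6.91 and 3.87 CPM at 90 days. The 90-day samples 1 and 2 were above all other libraries, while 90-day sample 3 lay among the 30-day values. Between 60 and 90 days the log2 fold change was 0.93 ± 0.27 (SE), with a 95% interval from 0.37 to 1.49 (adjusted p = 0.203), and did not pass. With no filter on low counts the same comparison had an adjusted p of 0.0130, in a fit that called 354 of all genes there against 39 with the filter. Without 90-day sample 3 the test of any difference had an adjusted p of 0.0495, against 0.135 with all libraries.

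Setting the 60-day level against the average of the other time points asked which genes left a straight line in time. For Prlr, Nr3c2 and Ghr it was positive, at 0.38 ± 0.12, 0.37 ± 0.13 and 0.37 ± 0.09 (SE), and for Srd5a1 it was negative, at -0.69 ± 0.24. With adjusted p-values of 0.230, 0.329, 0.111 and 0.328 none passed with edgeR's quasi-likelihood test, where 0.256% of all genes did. The unadjusted p was under 0.05 for these 4 of the 9 genes and for 9.45% of all genes. With DESeq2, Ghr passed this contrast (adjusted p = 0.0200), as it did without 60-day sample 3 (0.0444). With no filter on low counts Ghr (adjusted p = 0.0158) and Prlr (0.0201) passed, in a fit that called 230 of all genes against 39.

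Genes that act with or after the receptors were taken from lists chosen for their roles. The JAK2 and STAT5 list holds 19 genes that carry or limit the signal of Ghr and Prlr, all tested. Between 30 and 60 days 1 rose and 0 fell, between 60 and 90 days 0 passed, and between 30 and 90 days 1 rose and 0 fell, counts of 1 in 19 beside the 1.14% and 1.81% of all genes that passed as higher. The gene that rose first was Cish, a feedback inhibitor induced by STAT5, and the later was Igfals, which encodes the acid-labile subunit that carries insulin-like growth factor in blood.

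Cish measured 32.3, 26.2 and 25.3 CPM at 30 days, 37.6, 42.2 and 39.8 CPM at 60 days and 31.1, 32.4 and 31.3 CPM at 90 days. The 60-day libraries stood above all others. Between 30 and 60 days the log2 fold change was 0.52 ± 0.11 (standard error; adjusted p = 0.0224), and it no longer passed with library-size scaling (adjusted p = 0.114) and without 30-day sample 2 (0.124), 30-day sample 3 (0.109) or 60-day sample 2 (0.148).

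Igfals measured 4.18, 5.94 and 5.80 CPM at 30 days, 7.21, 9.36 and 8.26 CPM at 60 days and 7.58, 11.1 and 13.7 CPM at 90 days, all later libraries above all 30-day ones. Between 30 and 90 days its log2 fold change was 1.01 ± 0.21 (standard error; adjusted p = 0.0122), and it no longer passed without 30-day sample 1 (adjusted p = 0.0793), 90-day sample 2 (0.0532) or 90-day sample 3 (0.0798). Further genes of this list were singled out after their values were seen. The kinase gene Jak2, at 21.4 ± 0.282 CPM at 30 days and 22.3 ± 0.654 CPM at 90 days (mean ± SD of 3 libraries), had a log2 fold change of 0.06 with a 95% interval from -0.18 to 0.29 (adjusted p = 0.860). Stat5a and Stat5b had log2 fold changes of -0.03 and -0.29 from 30 to 90 days (adjusted p = 0.925 and 0.243). Igf1, the best known product of growth hormone action, measured 4.07 ± 0.562, 3.95 ± 1.41 and 4.53 ± 0.473 CPM at 30, 60 and 90 days (mean ± SD of 3 libraries), and Socs2, another feedback gene of this pathway, 37.8 ± 5.65, 37.3 ± 5.76 and 32.8 ± 3.51 CPM.

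Several corticosteroid pathway genes passed the test, while neither corticosteroid receptor did. Hsd11b1, which regenerates active glucocorticoid from its inert form inside cells, measured 17.9, 28.9 and 31.0 CPM at 30 days, 62.6, 65.7 and 50.6 CPM at 60 days and 52.0, 76.2 and 64.5 CPM at 90 days. All later libraries were above all 30-day libraries. It rose 2.29-fold to 60 days, by 1.20 ± 0.20 on the log2 scale (standard error; adjusted p = 0.0131), and was 2.47-fold above 30 days at 90 days, by 1.31 ± 0.20 (adjusted p = 0.00469). The first call was lost without 60-day sample 1 (adjusted p = 0.0955) or 60-day sample 2 (0.0638), and the second held under all 17 alternatives. Hsd11b2, which inactivates glucocorticoid and so protects the mineralocorticoid receptor in sodium-transporting cells, had 0 to 7 counts per library. This gene was singled out after its values were seen. Of 31 listed genes that activate, inactivate or take up steroid and thyroid hormones, 30 have a row and 18 could be tested, and Hsd11b1 was the 1 that passed in the comparisons with 30 days, in which 1.14% and 1.81% of all genes passed as higher.

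**Figure D4:**
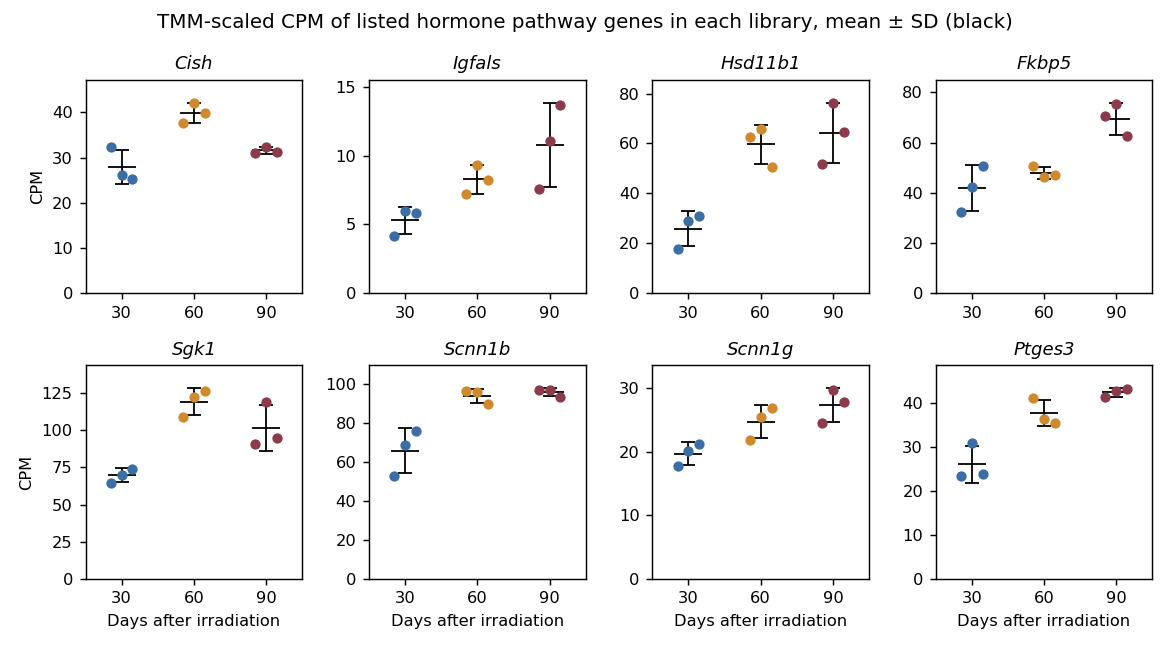
TMM-scaled CPM of 8 genes of the hormone pathway lists against days after irradiation, with a point for each library and the mean ± SD of 3 libraries in black. Hsd11b1 goes from 17.9 to 31.0 CPM at 30 days to at least 50.6 CPM later, Cish is highest at 60 days (37.6 to 42.2 CPM) and Fkbp5 at 90 days (62.7 to 75.4 CPM).

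Of 11 listed glucocorticoid response genes, 10 were tested. Between 30 and 60 days 2 rose and 1 fell, between 60 and 90 days 0 rose and 1 fell, and between 30 and 90 days 2 rose and 0 fell. In either direction 1.56%, 0.256% and 3.57% of all genes passed in these comparisons. Of the 10 tested, 8 had a positive log2 fold change from 30 to 60 days (median 0.173) and 4 from 30 to 90 days (median -0.024). Fkbp5, a chaperone partner that limits the glucocorticoid receptor and is induced by it, measured 32.5, 42.5 and 50.7 CPM at 30 days, 50.7, 46.1 and 47.2 CPM at 60 days and 70.6, 75.4 and 62.7 CPM at 90 days. The 90-day libraries were above all others, and between 30 and 90 days the log2 fold change was 0.73 ± 0.13 (standard error; adjusted p = 0.00392), a call kept under all 17 alternatives. Dusp1, a phosphatase of MAP kinases that many signals besides glucocorticoid induce, rose by 2.21 ± 0.30 to 60 days (adjusted p = 0.00394) and fell by 1.96 from 60 to 90 days in log2 units (standard error 0.28; adjusted p = 0.0181). The fall was lost with library-size scaling (adjusted p = 0.167) and without 90-day sample 2 (0.131) or 90-day sample 3 (0.0893). Cdkn1a, an inhibitor of the cell cycle and p53 target, fell by 1.04 (SE 0.23) on the log2 scale from 30 to 60 days (adjusted p = 0.0412), which failed under 9 of 17 alternatives, among them the omission of each 30-day and each 60-day sample and of 90-day sample 3, with adjusted p-values up to 0.218. The glucocorticoid targets Tsc22d3 and Per1, singled out after their values were seen, did not pass, with log2 fold changes from 30 to 60 days of 0.34 (adjusted p = 0.244) and 0.64 (adjusted p = 0.595).

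Of 11 listed mineralocorticoid response genes, 9 were tested, and Sgk1 is also on the glucocorticoid list. Between 30 and 60 days 2 rose and 0 fell, between 60 and 90 days 0 passed, and between 30 and 90 days 3 rose and 1 fell, beside the same shares of all genes (1.56%, 0.256% and 3.57%). The list as a whole did not rise. Of the 9 genes, 4 had a positive log2 fold change from 30 to 60 days (median -0.035) and 4 from 30 to 90 days (median -0.036). Sgk1, a kinase induced by both corticosteroid receptors that keeps sodium channels at the membrane, measured 64.9, 69.7 and 74.3 CPM at 30 days, 109, 123 and 126 CPM at 60 days and 90.9, 119 and 94.8 CPM at 90 days. It rose by 0.78 ± 0.12 on the log2 scale to 60 days (standard error; adjusted p = 0.00139), under all 17 alternatives. At 90 days it was 0.55 ± 0.12 above 30 days (adjusted p = 0.0113), a call lost without 30-day sample 1 (adjusted p = 0.0709), 30-day sample 2 (0.0521) or 90-day sample 2 (0.0982).

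Of the subunits of the epithelial sodium channel, beta and gamma passed the test and alpha did not. Scnn1b measured 52.9, 68.5 and 75.7 CPM at 30 days, 96.0, 95.9 and 89.6 CPM at 60 days and 96.7, 96.8 and 93.1 CPM at 90 days, with all later libraries above all 30-day ones. Its log2 fold change was 0.51 ± 0.12 (SE) to 60 days (adjusted p = 0.0288, lost under 6 of 17 alternatives, 4 of them without 30-day samples 1 or 2 or 60-day samples 1 or 2, with adjusted p-values up to 0.218) and 0.54 ± 0.12 to 90 days (adjusted p = 0.0123, lost without 30-day sample 1 or 90-day sample 2, with adjusted p-values up to 0.0791). Scnn1g rose by 0.47 ± 0.12 from 30 to 90 days (standard error; adjusted p = 0.0383), a call lost with limma-voom and without 30-day samples 1 or 2, 60-day sample 2 or 90-day samples 2 or 3, with adjusted p-values up to 0.210. Scnn1a, the alpha subunit, was singled out after its values were seen. Its log2 fold change from 30 to 90 days was 0.07 with a 95% interval from -0.14 to 0.28 (adjusted p = 0.791). The ratio of Scnn1b to Scnn1a per exon length, free of scaling between libraries, was 1.07 to 1.48 at 30 days and 1.73 to 2.20 in all later libraries. Usp2, a deubiquitinase that is also under clock control, fell by 1.07 (SE 0.22) from 30 to 90 days on the log2 scale (adjusted p = 0.0239), lost when only the 6 samples compared were fitted and without 60-day samples 1 or 3 or 90-day sample 2, with adjusted p-values up to 0.111.

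Of 19 listed receptor partners and coregulators 18 were tested, and 1 rose between 30 and 60 days, 0 passed between 60 and 90 days and 2 rose between 30 and 90 days, with 0 falling, beside 1.14% and 1.81% of all genes higher at 60 and at 90 days. The list as a whole did not rise. Of the 18 genes, 6 had a positive log2 fold change from 30 to 60 days (median -0.029) and 6 from 30 to 90 days (median -0.038). The 2 that passed, Ptges3 and Stip1, belong to the Hsp90 machinery that keeps steroid receptors able to bind hormone. Ptges3, the p23 co-chaperone, rose by 0.70 ± 0.12 on the log2 scale from 30 to 90 days (standard error; adjusted p = 0.00202), under all 17 alternatives. Its rise of 0.53 to 60 days (adjusted p = 0.0267) was lost under 6 of them, 4 of which left out 30-day samples 1 or 3 or 60-day samples 1 or 2, with adjusted p-values up to 0.167. Stip1, which links Hsp70 to Hsp90, rose by 0.43 ± 0.11 to 90 days (standard error; adjusted p = 0.0275), a call lost without 30-day samples 1, 2 or 3 or 90-day samples 2 or 3 in turn, with adjusted p-values up to 0.142. Fkbp4, the immunophilin of the same complex, singled out after its values were seen, measured 196 ± 17.6 CPM at 30 days and 196 ± 9.56 CPM at 90 days (mean ± SD of 3 libraries; log2 fold change -0.003, 95% interval from -0.26 to 0.26, adjusted p = 0.994).

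Thyroid and sex steroid response genes gave no pairwise call. Of 10 thyroid hormone response genes 7 were tested, and 0 passed in any pairwise comparison, while 1, Klf9, passed the test of any difference (adjusted p = 0.0348). Klf9, a transcription factor also induced by glucocorticoid and under clock control, measured 91.6 ± 15.2, 102 ± 8.54 and 68.2 ± 9.96 CPM at 30, 60 and 90 days (mean ± SD of 3 libraries). The Klf9 call was lost with library-size scaling (adjusted p = 0.340) and without 30-day sample 2, 60-day samples 1 or 2 or 90-day samples 2 or 3, with adjusted p-values up to 0.176 among these. Idh3a, a citric acid cycle enzyme, had a log2 fold change of -0.05 from 30 to 90 days (adjusted p = 0.846). Of 10 estrogen and progesterone response genes 6 were tested and 0 passed in any comparison. Xbp1, also a regulator of secretory cells, had a log2 fold change of -0.17 from 30 to 90 days (adjusted p = 0.507), and the cyclin gene Ccnd1 0.005 with a 95% interval from -0.75 to 0.76 (adjusted p = 0.996).

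The granular duct products, which these hormones are known to control, passed the test in 8 of 11 cases at 60 days and 9 of 11 at 90 days against 30 days, where 1.56% and 3.57% of all genes did. All 11 listed products were tested, and 8 rose and 0 fell between 30 and 60 days, 0 passed between 60 and 90 days, and 9 rose and 0 fell between 30 and 90 days (among them Egf, Ren1, Crisp3 and Klk1b26, the last from a family of close paralogs with uncertain single counts). The median log2 fold change of the list was 1.86 to 60 days and 1.89 to 90 days, beside 0.15 and 0.21 for the 9 receptor and enzyme genes. Without 60-day sample 1 the count from 30 to 60 days was 3 of 11, and with library-size scaling it was 5. From 30 to 90 days it ran from 6 to 9 over the alternatives. The Ren1 call from 30 to 90 days was lost under 9 of 17 alternatives (adjusted p up to 0.125). Its call from 30 to 60 days was lost under 4 (up to 0.0827), and that of Crisp3 under 1 (0.0556). Ren1 had 24 to 77 counts per library at 30 days. The granular duct products were already known to rise in these samples, so the list is not independent evidence.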

How the data were processed

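RNA from 9 irradiated submandibular glands was sequenced after SMARTER mRNA-seq library preparation, per the labels. The deposited values are raw counts per gene and library. The submitters' processing notes name fastp, STAR, featureCounts and the mm10 build; versions, annotation and strand setting are not given in the sources used here. Of 54532 identifiers, 54495 matched GENCODE release M21 (GRCm38), which gave symbols, positions and exon lengths. A further 3 columns of the table matched no sample and were not used.

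Counts were scaled by TMM, filtered with filterByExpr (minimum count 10) and fitted with edgeR 4.0.16 (quasi-likelihood, robust; R 4.3.3), with all 9 libraries in 1 fit and 3 time points. P-values were adjusted over 15224 genes by Benjamini-Hochberg at a threshold of 0.05. The script was tested on simulated data. Alternatives were DESeq2 1.42.0 and its size factors, limma-voom 3.58.1, library-size scaling, other filters, a replicate block, fits of only the 6 samples compared, and each library left out. Members and lists were chosen with earlier results of these data known. Text names all 9 genes, every listed gene called in a pairwise comparison (or the 2 most abundant of a list with none) and the 3 nearest profiles to Ghr. Outside this rule, Jak2, Stat5a, Stat5b, Igf1, Socs2, Tsc22d3, Per1, Scnn1a, Fkbp4 and Hsd11b2 were singled out after their values were seen. Nr1d1 is named for the bases it shares with Thra. Of the granular duct products only examples are named, and 1 item is not reported here. Same-numbered samples had deviation correlations from -0.06 to 0.191 and differently numbered samples from -0.21 to 0.189, so numbers were not taken as pairs.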

Additional observations from a re-analysis of the deposited data

Results flagged for a closer look

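For 2 genes of the corticosteroid response lists the first step in time differed from the second, tested in edgeR with quasi-likelihood as the 60-day level less the average of the other time points. For Sgk1 this difference was 0.504 ± 0.097 on the log2 scale (SE; adjusted p = 0.0285), and every 60-day library but sample 1 was above every other library. The call was lost with library-size scaling (adjusted p = 0.593) and without 30-day sample 2, 60-day samples 2 or 3 or 90-day samples 1 or 3, with adjusted p-values up to 0.267 among these.

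For Dusp1 the difference was 2.085 ± 0.233 (SE; adjusted p = 0.00336). It measured 3.97, 6.78 and 6.22 CPM at 30 days, 21.4, 19.1 and 38.8 CPM at 60 days and 8.29, 5.64 and 6.47 CPM at 90 days, so that the 60-day libraries stood above all others.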

How the results depend on the processing

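Each pairwise comparison was recomputed under 17 alternatives. The rise of Ghr from 30 to 60 days passed in all of them, and its higher level at 90 than at 30 days in all but 2, both given with the result. With no filter on low counts the number of the 9 genes called was 2 from 30 to 60 days, 2 from 60 to 90 days, 2 for 60 days against the mean of the others and 3 for any difference, and DESeq2 gave 1 for 60 days against the mean of the others. With each library left out in turn these counts ran from 1 to 2 between 30 and 60 days, from 0 to 1 between 30 and 90 days, from 0 to 1 for 60 days against the mean and from 1 to 3 for any difference. Over all genes the counts ran from 73 to 459 (238 as reported), from 16 to 354 (39), from 184 to 1045 (544), from 13 to 230 (39) and from 220 to 1194 (501), in the order 30 to 60, 60 to 90, 30 to 90, mid-point and any difference. The upper end of each range came from the fit with no filter on low counts.

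Library-size scaling moved the median of all genes to 0.237 from 30 to 90 days and to 0.175 from 60 to 90 days (log2), and with it small values changed sign. From 60 to 90 days Thra became 0.146, Thrb 0.095, Nr3c1 0.055 and Ghr 0.061, from 30 to 90 days Thra became 0.197 and Prlr 0.125, and for 60 days against the mean Thra became -0.047 and Pgr -0.056. With libraries left out, values that crossed 0 ran for Thra from -0.079 to 0.155 (30 to 60 days), from -0.191 to 0.047 (60 to 90 days), from -0.084 to 0.044 (30 to 90 days) and from -0.063 to 0.173 (mid-point). From 30 to 90 days those of Thrb ran from -0.056 to 0.098 and of Nr3c1 from -0.062 to 0.102, and the mid-point value of Pgr from -0.018 to 0.051. No value that changed sign had passed the test.

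With the replicate block, 1, 0, 1, 0 and 1 of the 9 genes were called in these 5 comparisons, as without it, and 270, 92, 717, 73 and 609 of all genes. Where a sample number is shared, it was not taken to pair the samples. The depth limits Esr1, with 5 to 48 counts per library.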
